A study of Sus scrofa with 48 samples.

Results

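The circRNAs described here are the ones that seminal plasma extracellular vesicles (SPEVs) of boars carried repeatedly. They were chosen by their detection: a circRNA was kept when its back-splice junction had a count above 0 in 12 or more of 24 long RNA libraries, whatever the group of the library. Of 17379 circRNAs in the count table, 980 met this rule and are called common circRNAs below. The vesicles came from Yorkshire boars (so named in the labels, and large white in the methods of the study) with high sperm motility (H group, 12 boars) or low sperm motility (L group, 12 boars), all sexually mature and 14 to 36 months of age, with 1 library per boar. They were collected by ultracentrifugation from 60 mL of seminal plasma per boar according to the sample labels, whereas the methods of the study give a smaller volume, and the plasma was that of the sperm-rich fraction of the ejaculate. Long RNA libraries were made with the SMARTer Stranded Total RNA-Seq kit. The labels give no batch. The libraries held 128644 to 610615 junction reads, so that the 3 reads that a count of 0 still allows corresponded to 4.91 to 23.3 RPM (the junction reads of a circRNA over the column total of its library, times 1000000), counting error only.

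A circRNA forms when a splice donor is joined to an acceptor that lies upstream of it, which closes 1 or more exons into a ring without free ends. Such rings are known to be more resistant to exonucleases than linear RNA, and they are found in many body fluids. The RNA of seminal plasma vesicles is a mixture, since several epithelia along the male tract shed vesicles into this fluid. In such bulk RNA, fewer vesicles that carry a circRNA and fewer copies per vesicle cannot be told apart.

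At the limit of the rule, the 159 circRNAs with reads in 12 libraries had a median of their mean abundance of 197 RPM, and the 195 circRNAs with reads in 11 libraries, just outside, had 168 RPM. In the libraries that did hold reads, the medians were 305 and 293 RPM. Detection and abundance changed gradually on both sides of the limit, and these values are a description without a test, because the rule used them. The common circRNAs took 53.2% of all junction reads, those with reads in 2 to 11 libraries (8010 circRNAs) 38.6%, and the 8389 circRNAs seen in a single library 8.20%. All of the 100 most abundant circRNAs by mean RPM were common ones, and so were 495 of the first 500. The most abundant circRNA that missed the rule ranked 392. It lay outside genes, between positions 10775925 and 10777027 of chromosome 6, and had reads in 9 libraries at a mean of 395 ± 774 RPM (SD, n = 24).

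By position, the common circRNAs were mostly made of annotated exons. Ends were compared with the NCBI annotation of the pig genome Sscrofa11.1. Both ends lay in exons of 1 gene for 938 of 980 (95.7%), against 89.1% of all 17379 circRNAs and 85.0% of those seen in a single library. The share was 92.7% of those with reads in 2 to 11 libraries and 96.4% of those in 11, just outside the rule. Both ends fell exactly on exon borders for 913 common circRNAs (93.2%), against 83.2% of all. Another 12 lay in a gene but not with both ends in its exons, 19 lay outside genes and 11 were on unplaced scaffolds that were not annotated here. On chromosomes, all 969 common circRNAs were flanked by AG before the first base and GT after the last base on the strand of the circle, which find_circ and CIRI2 look for, and so were all other circRNAs placed on chromosomes. For the 938 exonic ones, this strand was in each case that of the host gene. Protein-coding genes hosted 933 of the common circRNAs and lncRNA genes 17. Chromosome 1 had 97 common circRNAs, chromosome 13 had 88, chromosome 6 had 85 and chromosome 3 had 79, and chromosome Y had 1. Relative to all circRNAs listed on a chromosome, the common ones made up 3.94% on chromosome 17, the lowest share, and 7.26% on chromosome 12, the highest but for chromosome Y, where 1 of 12 was common.

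The common circRNAs were rings of few exons. The genomic span had a median of 5622.5 bases (quartiles 1773 and 14070) and ran from 145 to 91298 bases, whereas the median was 7694 bases for all circRNAs and 8510 bases for those seen in a single library. In the 913 with both ends on exon borders of 1 transcript, the number of exons had a median of 3. Rings of 2 exons were the most frequent, with 299 (32.7%, against 26.2% of all circRNAs that could be counted), followed by 244 of 3 exons (26.7%, against 20.1%), while 190 had 5 or more exons (20.8%, against 33.4%) and 48 a single exon (5.26%, against 4.97%). The joined exons measured 365 bases in the median, from 133 to 3644, against 470 bases for all circRNAs. A ring started at exon 2 of its transcript in 298 cases (32.6%), against 21.2% of all circRNAs. It started at exon 1 in 5 cases and ended with the last exon in 0. These shares are set side by side as a description and were not tested.

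The shortest common circRNAs were single exons of 145 bases in ZMYM6 (chromosome 6, 91243652 to 91243796), 147 bases in CEP350 (chromosome 9, 121631133 to 121631279), 152 bases in PABPN1, 153 bases in THNSL2 and 165 bases in FAM96A. CEP350 codes for a centrosomal protein and PABPN1 for a nuclear poly(A) binding protein. Their mean abundance lay between 140.5 RPM (ZMYM6) and 242 RPM (CEP350). At the other end, a circRNA of TBC1D22A reached over 91298 bases of chromosome 5 (2600835 to 2692132) but joined 6 exons of 621 bases. NCOA2, a nuclear receptor coactivator, gave a circRNA of 89213 bases on chromosome 4 (65053967 to 65143179) with 3 exons of 335 bases and 651 ± 637 RPM (SD, n = 24). The other long ones were a circRNA of RSRC1 over 83131 bases and a pair outside annotated genes, over 88476 bases on chromosome 16 and over 88040 bases on chromosome 17. The long circles in genes joined 3 to 6 exons. Over the common circRNAs, however, the median span was larger with more exons: 246.5 bases with 1 exon, 1948 with 2, 5623.5 with 3, 9137 with 4 and 16649 with 5 or more. Median abundance was 355 RPM for the 150 common circRNAs that spanned under 1000 bases, 353 RPM for the 494 of 1000 bases to under 10000, and 319 RPM for the 336 of 10000 bases and over.

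In the 1000 bases outside each end, soft-masked repeats covered a median of 42.9% for the common circRNAs and 39.6% for all circRNAs. An inverted match between the flanks, found by blastn on opposite strands at an E value of at most 1e-05, was present for 418 of 969 common circRNAs (43.1%), 34.2% of all and 29.8% of those seen in a single library. Such inverted repeats can pair in the precursor RNA and are known to bring splice sites together. Where present, the match had a median length of 219.5 bases at 78.0% identity. Among the common circRNAs, those with and without a match had nearly the same median abundance, 339 and 336 RPM, but a different span, 3498 and 8529 bases.

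Splice sites were often used by several circles. Of the common circRNAs, 795 (81.1%) shared their start or their end with at least 1 other of the 17379 circRNAs, against 61.5% of all circRNAs. With another common circRNA, 283 (28.9%) shared an end. These formed 132 shared sites, of which 112 served 2 common circRNAs, 20 served 3 or more, and the largest served 6. Read along the strand of the circle, 94 of the 131 sites with known strand were the first base of their circles (71.8%), that is the acceptor, and 37 the last base. Among all circRNAs on chromosomes, 2928 of 5615 shared sites were first bases (52.1%). In the sites with 2 common circRNAs, the more abundant had a median of 67.0% of their summed RPM, and it was the shorter one in 68 of 112. In the median site it was the higher one in 73.8% of the libraries with reads of either.

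The site used by the most common circRNAs was the acceptor of exon 2 of TLK1, a tousled-like kinase that acts on histone chaperones, at position 77283482 of chromosome 15. It served 6 common circRNAs with 10029 RPM in sum, out of 10 circRNAs listed there. The circle of 3 exons that ends at 77234646 led with 6021 ± 2127 RPM (SD, n = 24) and was the highest of the 6 in 22 of 24 libraries. Its share of the 6 ran from 0 to 78.5% with a median of 63.2%, and the share of 0 came from library L5, which had 0 reads of this circle. Next came the circle to 77249916, which ends in an intron of the annotation, with 1423 ± 1142 RPM (SD, n = 24) and up to 58.1% of the sum in a library. The circles to 77251049, 77226317, 77219097 and 77203628 had 1024, 893, 468 and 200 RPM. All 6 were found together in 10 libraries. The junctions are printed to show that they differ only before the shared acceptor, with the last 20 bases of the circle in lower case and the first 20 bases after the junction in capitals, 5′ to 3′ on the minus strand of Sscrofa11.1 (NCBI genome).
TLK1 77234646 to 77283482: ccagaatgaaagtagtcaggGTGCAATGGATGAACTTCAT
TLK1 77249916 to 77283482: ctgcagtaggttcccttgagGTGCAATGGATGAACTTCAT
TLK1 77251049 to 77283482: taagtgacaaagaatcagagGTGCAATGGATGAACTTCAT
TLK1 77226317 to 77283482: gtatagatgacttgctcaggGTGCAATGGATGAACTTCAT
TLK1 77219097 to 77283482: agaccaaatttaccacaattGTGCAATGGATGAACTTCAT
TLK1 77203628 to 77283482: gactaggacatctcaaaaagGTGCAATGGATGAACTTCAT

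PRPSAP2, which encodes a protein associated with phosphoribosyl pyrophosphate synthetase, also had 6 common circRNAs at 1 acceptor (chromosome 12, 60376920), of 2 to 10 exons. Here the reads were spread more evenly: the circle of 10 exons had a median of 42.1% of the sum per library and that of 6 exons 25.2%. The circle of 10 exons was the highest of the 6 in 18 libraries. In the study this circle is listed under another host gene, SLC5A10. ZC3H6, a zinc finger gene, had 5 at position 44122061 of chromosome 3, and its circle of 5 exons had 2007 ± 973 RPM (SD, n = 24). TESK2, a kinase that acts on cofilin, had 4 at 165903478 of chromosome 6, led by a circle of 3 exons over 48176 bases with 1708 ± 922 RPM (SD, n = 24). CCT3, a subunit of the chaperonin that folds actin and tubulin, had 4 at 93738637 of chromosome 4, led by a circle of 4 exons with 1225 ± 700 RPM (SD, n = 24). In each of these 5 sites the shared side was the first base of the circle, and the leading circle was the highest in at least 18 of 24 libraries. Sites in STRN3 and MIB1 also served 4 common circRNAs, and there the leading circle was the highest in 19 and 10 libraries.

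The common circRNAs came from 713 host genes, of which 551 had a single one, 118 had 2 and 44 had 3 or more. UBAP2 and PRPSAP2 had 7 each, TLK1 and NCOR1 had 6 each, and PAN3, ZC3H6, CCT3, IQGAP2 and SMARCC1 had 5 each. UBAP2 codes for a ubiquitin associated protein, and its 7 circles summed to 7285 ± 2712 RPM in the H group and 8739 ± 3286 RPM in the L group (SD, n = 12 each), or 92.7% of the RPM of all 24 circRNAs listed in this gene. For TLK1 this share was 95.1%, for PAN3 91.7% and for PRPSAP2 88.3%. NCOR1, a nuclear corepressor, was more dispersed, with 61.4% of its RPM in the common circRNAs and the rest in others of its 24.

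Abundance was led by few circles. The 10 most abundant common circRNAs held 10.9% of the summed mean RPM of all 980, the first 100 held 38.9%, and 169 were needed for 50%. The median over the 980 was 339 RPM, with quartiles of 229 and 579, against a median of 15.6 RPM over all circRNAs.

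The most abundant was a circle of exons 2 to 4 of PTGES3, which encodes p23, a co-chaperone of HSP90. In the H group it had 6543 RPM in the lowest library, 9259 in the median and 12946 in the highest, and in the L group 8694, 10547 and 15456. The groups overlapped over most of their range, with a log2 fold change of L against H of 0.32 (standard error 0.17, unadjusted P = 0.0721, adjusted P = 0.9997 by the quasi-likelihood test of edgeR). PRKAR1A, a regulatory subunit of protein kinase A, which transmits the cAMP signal, followed with 4385, 7874 and 15075 RPM in H libraries and 4431, 9612 and 14237 RPM in L libraries. LRCH1, a leucine-rich repeat protein, had 2883, 6742 and 10441 RPM in H libraries and 3964, 6833 and 13320 in L libraries. Each of these circles was present in all 24 libraries, and none separated the groups.

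The leading TLK1 circle ranked next and was the only one of the first 10 with a library at 0. TBC1D22A, a member of the family of Rab GTPase activating proteins, had 5568 ± 1846 RPM in the H group and 4923 ± 1667 RPM in the L group (SD, n = 12 each). CSPP1, a protein of centrosomes and cilia, had 5020 ± 2001 and 4475 ± 2056 RPM. The main UBAP2 circle had 3537 ± 1422 and 4983 ± 2342 RPM, and PAN3, a subunit of a deadenylase complex, had 3669 ± 2132 and 3603 ± 1078 RPM. The group means of TBC1D22A, CSPP1 and PAN3 differed by less than 1 SD of either group, and the unadjusted P of UBAP2 was 0.133 by the quasi-likelihood test of edgeR.

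PSD3, an exchange factor for the small GTPase ARF6, had a pair of circles from 1 acceptor (chromosome 17, 13008092) at nearly equal abundance. The longer, to 13031589 with 5 exons, had 4126 ± 2161 RPM, and the shorter, to 13012850 with 4 exons, 3481 ± 1794 RPM (SD, n = 24). The log2 ratio of longer to shorter was -1.01, 0.01 and 0.75 (lowest, median, highest) in H libraries and -1.10, 0.73 and 2.56 in L libraries. The longer one was the higher in 6 of 12 H libraries and 10 of 12 L libraries. The ranges overlapped. The ratio was picked after its values were seen, so no test of it is given.

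Junctions from among the 10 most abundant common circRNAs are given because they identify the circles, which share all other sequence with the linear transcripts. Lower case marks the last 20 bases of the circle and capitals the first 20 bases after the junction, 5′ to 3′ on the strand of the gene in Sscrofa11.1 (NCBI genome). The strand is minus for PTGES3, PRKAR1A, LRCH1, TLK1, TBC1D22A and CSPP1, and plus for UBAP2, PSD3 and PAN3.
PTGES3, chromosome 5, 22008784 to 22009750: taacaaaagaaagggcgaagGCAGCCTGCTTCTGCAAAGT
PRKAR1A, chromosome 12, 11669306 to 11671052: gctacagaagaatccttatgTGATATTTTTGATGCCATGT
LRCH1, chromosome 11, 20710449 to 20719541: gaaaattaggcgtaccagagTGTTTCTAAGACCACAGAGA
TLK1, chromosome 15, 77234646 to 77283482: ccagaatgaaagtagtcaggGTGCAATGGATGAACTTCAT
TBC1D22A, chromosome 5, 2675422 to 2692132: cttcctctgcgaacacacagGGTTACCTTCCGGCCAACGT
CSPP1, chromosome 4, 67679793 to 67689219: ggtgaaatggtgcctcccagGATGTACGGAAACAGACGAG
UBAP2, chromosome 10, 32817449 to 32827084: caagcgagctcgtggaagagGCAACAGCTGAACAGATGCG
PSD3, chromosome 17, 13008092 to 13031589: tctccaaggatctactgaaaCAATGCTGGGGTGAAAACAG
PAN3, chromosome 11, 5503065 to 5507316: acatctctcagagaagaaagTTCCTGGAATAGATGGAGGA

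In all 24 libraries, 40 circRNAs were found. They were exonic without exception, and 19 of the 38 whose exons could be counted started at exon 2. Their mean abundance was 681 RPM or more with a median of 2188 RPM, and their coefficient of variation (CV, SD over mean of RPM across the 24 libraries) had a median of 0.521, against 1.16 for all common circRNAs. PTGES3 varied least (CV 0.227). Others of low CV were SUGCT, an enzyme of glutarate metabolism (0.322), TBC1D22A (0.334), the locus LOC110257335 on chromosome 16 (0.339), LRCH1 (0.362), PRKAR1A (0.367), SUCO (0.391), the Golgi stacking protein GORASP2 (0.392) and CDK13, a kinase of RNA polymerase II (0.422). The SUGCT circle, 5 exons on chromosome 18 from 54260019 to 54270584, had 1331, 2307 and 3808 RPM (lowest, median, highest) in H libraries and 937, 2734 and 3413 RPM in L libraries. CDK13 is on the same chromosome, from 54393586 to 54404485, with 948, 2091 and 3850 RPM in H libraries and 505, 1961 and 2992 in L libraries. Both circles had similar ranges of RPM in the groups. By qPCR, another measure on fewer samples, the study reports a significant group difference for a circRNA of SUGCT in SPEVs.

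The most variable of the 40 were UBLCP1, a phosphatase of the proteasome (CV 0.882), the centriole protein CEP63 (0.836), the histone chaperone NAP1L1 (0.832), MORC3 (0.778) and EIF2AK4, a kinase that senses amino acid shortage (0.760). CEP63 had 180, 862 and 3560 RPM (lowest, median, highest) in H libraries and 189, 552 and 1675 RPM in L libraries. Its group means were 1337 ± 1003 and 661 ± 450 RPM (SD, n = 12 each), with a log2 fold change of -0.96 (standard error 0.70, unadjusted P = 0.175). The ranges overlapped. UBLCP1 had 316, 469 and 1296 RPM in H libraries and 98.6, 407 and 2780 RPM in L libraries, so the wider range was in the L group.

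Outside these 40, common circRNAs had reads in some libraries and 0 in others. Of the 23520 values of the 980 circRNAs in 24 libraries, 7471 (31.8%) were 0. At 7470 of these, the mean RPM of the circRNA and the depth of the library would have given 10 reads or more, and at 2596 it would have given 100 or more. These expected numbers take the mean over boars and counting error only, and amplified reads are not independent molecules. When present, a common circRNA had a median of 157 reads, and 0.380% of the values above 0 were below 10 reads. The CV over libraries was above 1 for 668 of 980, with quartiles of 0.919 and 1.34 and a highest value of 2.50. Across the 980 circRNAs, the Spearman correlation of RPM had a median of 0.246 between H libraries, 0.309 between L libraries and 0.279 between an H and an L library, with a range of 0.141 to 0.530 over all pairs. H libraries were thus less alike among themselves than H and L libraries were, and L libraries more, which was not tested. The circRNAs are not independent replicates, and all pairs share the same 980 circRNAs.

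The question of the study was how SPEV circRNAs differ between boars of high and low sperm motility. The number of common circRNAs detected per library was 362, 634 and 794 (lowest, median, highest) in the H group and 524, 733 and 910 in the L group. Presence over all 24 libraries is what the rule used, without regard to group, so this comparison is not independent of the choice of the circRNAs. The means were 620 ± 120 and 717 ± 150 (SD, n = 12 each; difference 97.4, two-sided permutation test, p = 0.0941), and the ranges overlapped. The highest numbers belonged to L12 (910), L8 (908) and L11 (908), and the lowest to H1 (362). Without these 3 L libraries, a comparison added after the data were seen, the difference was 33.7. They were left out for their high numbers, so a smaller difference follows from that choice. Over all circRNAs, common or not, 1967 ± 541 were detected per H library and 2767 ± 1356 per L library (SD, n = 12 each; permutation test, p = 0.0694, adjusted p = 0.250 over 8 library measures), a larger difference relative to the mean than that of the common ones.

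The number of common circRNAs detected was set beside depth as a description. It rests on the presence that the rule used, and the reads of the common circRNAs are part of the total, so no test of this relation is given. Over the 24 libraries, its correlation with the number of junction reads was 0.454 by Pearson's r and 0.378 by Spearman's rho. Without H3 and L12, the libraries farthest from the median depth, r was 0.360. Within the L group r was 0.784 and rho 0.739, and within the H group r was 0.142 and rho 0.0559. The difference between these correlations was not tested. Depth itself was 337508 ± 153879 reads in the H group and 333002 ± 149917 reads in the L group (SD, n = 12 each; permutation test, p = 0.942, adjusted p = 0.942 over 8 library measures).

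The share of junction reads on the common circRNAs varied over a narrow range between boars. It was 46.8%, 53.5% and 59.1% (lowest, median, highest) in the H group and 49.5%, 54.8% and 59.4% in the L group, with means of 53.1 ± 3.64% and 54.4 ± 2.86% (SD, n = 12 each; difference 1.28, permutation test, p = 0.351). The 40 circRNAs found in every library took 10.98 ± 1.31% and 11.2 ± 1.06% of the reads (difference 0.223, permutation test, p = 0.654). Without H11 alone the difference was -0.00802, so its sign was not stable. Of the circRNAs detected in a library, the common ones were 15.9% in L12, the library with the most circRNAs (5716), and 37.9% in H1, that with the fewest (956). The ranges of the groups overlapped for both shares of reads.

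By span, common circRNAs under 1000 bases took 5.86%, 7.90% and 11.08% of the junction reads (lowest, median, highest) in the H group and 7.44%, 9.33% and 11.5% in the L group. The difference of the means was 1.10 percentage points (8.16 ± 1.46% and 9.26 ± 1.32%, SD, n = 12 each; permutation test, p = 0.0645, adjusted p = 0.193 over 3 classes). Without L8, L11 and L12, left out after the data were seen, the difference was 1.58 points (p = 0.0161 by the same test, unadjusted). The middle class differed by 1.06 points (permutation test, p = 0.245, adjusted p = 0.245). The class of 10000 bases and over differed by -0.88 points (17.4 ± 1.75% and 16.6 ± 1.60%; permutation test, p = 0.213, adjusted p = 0.245). None of the classes differed beyond the spread between boars after adjustment.

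Of single circRNAs, 3 common ones passed the limits used in the study (an unadjusted P under 0.05, with L over H at or above 1.5 or at or below 0.67). Each was higher in the L group. At these limits the study itself reports many more circRNAs, also by edgeR on junction reads. Its methods name neither a filter on low counts nor the form of the test, so the 2 counts are not alike. All 956 circRNAs that passed the filter on low counts were common ones, and the 24 common circRNAs that did not pass it had reads in 12 or 13 libraries. The calls were 0.314% of the circRNAs tested, and this background consists of the common circRNAs themselves. Without the fold limits, P was also below 0.05 for 3 of 956, a smaller share than evenly spread P values would give. The cause was not tested, and few calls do not show that the groups did not differ. After Benjamini-Hochberg adjustment, edgeR left 0 (0.0% of those tested). DESeq2 called 11, of which 5 were higher and 6 lower in the L group. The count was 44 with another setting of the edgeR test (legacy=FALSE, 30 higher and 14 lower) and 50 with limma (43 higher and 7 lower), which was chosen after seeing the data. Each of these left 0 after adjustment. The median log2 fold change of L against H over the 956 was 0.14 with TMM scaling, 0.05 with library totals and -0.04 in the fit of DESeq2, which differs in model as well as in size factors, and the number above 0 was 563, 504 and 452. A direction of the common circRNAs as a whole was therefore not the same in these fits.

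The smallest P was that of DCUN1D1, a factor of cullin neddylation, for a circle of exons 2 to 6 on chromosome 13 (120919103 to 120935351). It had 0, 0 and 424 RPM (lowest, median, highest) in H libraries and 0, 571 and 2565 RPM in L libraries. Reads were present in 2 H and 10 L libraries, which is the lowest number the rule allows, so that the circle met the rule mainly through the group in which it was higher. The log2 fold change was 3.78 (standard error 1.50, unadjusted P = 0.0136, adjusted P = 0.9997 by edgeR's quasi-likelihood test). RAB21, a small GTPase of endosomes, was alike, with a circle of 3 exons on chromosome 5 (35769902 to 35772923) in 2 H and 10 L libraries, and the same limit holds for it. It had 0, 0 and 211 RPM in H libraries and 0, 387 and 912 RPM in L libraries, with a log2 fold change of 3.58 (standard error 1.63, unadjusted P = 0.0308, adjusted P = 0.9997). Without L8, L11 and L12, its P was 0.0506 at a log2 fold change of 3.67. The called circle of LOC110256791, a single exon of 213 bases on chromosome 14 (37526132 to 37526344), was in contrast present in 11 H and 12 L libraries. It had 0, 810 and 3244 RPM in H libraries and 366, 1639 and 10189 RPM in L libraries, with a log2 fold change of 1.31 (standard error 0.57, unadjusted P = 0.0246, adjusted P = 0.9997). In all 3 the groups overlapped.

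Next in the order of P, and not called, were a circle outside genes on chromosome 6 (168716698 to 168717962, P = 0.0521) and circles of SRPRB, a subunit of the receptor of the signal recognition particle (P = 0.0619), PCTP, a phosphatidylcholine transfer protein (P = 0.0643), PTGES3 (P = 0.0721) and ERO1B, an oxidase of disulfide formation in the endoplasmic reticulum (P = 0.0803). They were followed by KANSL1L (P = 0.0814) and GCH1, the first enzyme of tetrahydrobiopterin synthesis (P = 0.0836). PCTP was abundant, with 0, 1062 and 1862 RPM (lowest, median, highest) in H libraries and 0, 2012 and 5288 RPM in L libraries, and a log2 fold change of 1.30 (standard error 0.69). KANSL1L was the only one of these with more reads in the H group, with 0, 826 and 2408 RPM in H libraries and 0, 174 and 620 RPM in L libraries and a log2 fold change of -1.88 (standard error 1.07). That fold change was -0.81 with the replicate number as a block and -0.68 with limma, which was chosen after seeing the data. The P values are unadjusted, and the adjusted value was 0.9997 for each by edgeR. The circle on chromosome 6 and those of SRPRB, ERO1B and GCH1 had reads mostly in L libraries. They met the rule mainly through the group in which they were higher, so their differences are tied to the choice of the circRNAs.

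Because many common circRNAs were at 0 in part of the libraries, presence was compared as well: for each circRNA, the libraries with and without reads were counted per group and set against each other by a two-sided Fisher's exact test. As the rule also used presence, over both groups together, the counts of common circRNAs are given as a description beside those of all circRNAs. The test could reach a P below 0.05 for circRNAs with reads in 5 to 19 libraries, 3280 in all, of which 758 were common. Of these, 26 common circRNAs (3.43%) had an unadjusted P below 0.05, and all 26 were found in more L than H libraries. Over the 3280 circRNAs the share was 4.05%, and 3.9% counting those found in more L libraries alone. The share among the common circRNAs was near this background, and the smallest adjusted P was 0.965. With single libraries left out the number of common circRNAs was 28 to 50, and the share moved for all testable circRNAs as well. Among the common circRNAs the share was 3.49 to 5.30% without a single L library, against 4.45 to 7.50% of all testable circRNAs. Without a single H library it was 3.94 to 6.24%, against 3.92 to 4.995%. With unequal groups the test could reach a P below 0.05 for more circRNAs, from 3797 (without L12) to 4201 (without H1). These shares thus rest on other sets of circRNAs than the main ones, and no direction is read from them. Among all 980, 596 were found in more L libraries (60.8%), 194 in more H libraries (19.8%) and 190 in equal numbers. Over all 17379 circRNAs, 57.3% were found in more L libraries and 29.5% in more H libraries, and for those with reads in 2 to 11 libraries the shares were 54.3% and 19.5%. Each common circRNA had reads in at least 2 libraries of both groups. Without the libraries L8, L11 and L12, 16 common circRNAs had a P below 0.05 (2.0%, against 3.17% of all testable circRNAs). Of these 16, 13 had a larger share of L libraries. These 3 libraries were left out after the data were seen, for their high numbers of common circRNAs. The lower count is therefore tied to that choice and to the smaller L group. By edgeR, 3 were called without L8, L11 and L12, 2 higher and 1 lower in the L group.

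SPAG9, a scaffold protein of the JNK pathway also known as a sperm associated antigen, had the smallest P by presence (3 H and 11 L libraries, P = 0.00276, adjusted P = 0.965). Its circle of 3 exons (chromosome 12, 27298750 to 27312593) had 0, 0 and 467 RPM (lowest, median, highest) in H libraries and 0, 196 and 1312 RPM in L libraries. DCUN1D1, RAB21, GCH1 and ZNRF3, a ubiquitin ligase of Wnt receptors, each had 2 H and 10 L libraries with reads (P = 0.00333). The histone demethylase gene KDM5A had 4 H and 11 L libraries (P = 0.00942). SRPRB, ERO1B and PSMC6, an ATPase of the proteasome, each had 3 H and 10 L libraries (P = 0.0123). With 12 to 15 libraries, all of these circles lay at or little above the limit of the rule and met it mainly through the L group, so these differences are tied to the choice of the circRNAs. Fisher's exact test was used for each, and the adjusted P was 0.965 throughout. The 3 calls by read number shared 2 members, DCUN1D1 and RAB21, with the 26 by presence.

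Among chromatin regulators, 26 of 57 listed genes hosted 44 common circRNAs, with a sum of 22032 ± 3300 RPM in the H group and 23791 ± 3201 RPM in the L group (SD, n = 12 each). Of 42 tested, 0 were called, against 3 of 956 (0.314%) over all tested. At so low a share, 0 calls in this list or in the lists below do not show that a list did not differ. The median log2 fold change of the 42 was 0.16, against 0.14 over all tested, with 0.09 under library totals and -0.00325 under DESeq2. Among the most abundant were BAZ2B, a bromodomain protein (1390 ± 998 and 1936 ± 992 RPM in H and L, SD, n = 12 each), BRD7 (1275 ± 859 and 1079 ± 570 RPM) and the histone demethylase gene KDM5B (964 ± 727 and 961 ± 660 RPM). Each of these differed by less than 1 SD of the larger group spread.

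Protein kinases and phosphatases had 18 of 72 genes with 31 common circRNAs and a sum of 30570 ± 4534 RPM in the H group and 33536 ± 5189 RPM in the L group (SD, n = 12 each). None of the 30 tested was called (0.314% over all tested). The median log2 fold change was 0.27, with 0.15 under library totals and 0.085 under DESeq2. After PRKAR1A, TLK1 and CDK13, the most abundant of this list, which does not hold TESK2, was TLK2, the relative of TLK1, with 1295 ± 828 RPM in H and 1766 ± 518 RPM in L (SD, n = 12 each). Its log2 fold change was 0.56 (unadjusted P = 0.312).

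Vesicle traffic and Golgi genes included 24 of 62 with 30 common circRNAs, which summed to 33408 ± 5191 RPM in the H group and 32703 ± 4820 RPM in the L group (SD, n = 12 each). TBC1D22A and the PSD3 pair led this list, followed by GORASP2 with 3120 ± 1220 RPM in H and 3775 ± 1447 RPM in L. None of the 28 tested was called (0.314% over all tested). Their median log2 fold change was 0.32, with 0.28 under library totals and 0.19 under DESeq2. The list of vesicle biogenesis and vesicle marker genes had 2 of 25 genes with a common circRNA. Of the circRNAs listed in its genes, 2 of 25 were common (8.0%), and of those in the vesicle traffic and Golgi genes 30 of 392 (7.65%). The 2 common ones were circles of STAM2, a subunit of the first ESCRT complex (196 ± 263 and 408 ± 504 RPM in H and L), and RAB11A, a GTPase of recycling endosomes (89.5 ± 112 and 355 ± 369 RPM), each in 5 H and 9 L libraries. For 14 of the 25, among them the tetraspanin genes CD9, CD63 and CD81, no circRNA was listed.

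Ubiquitin pathway genes included 19 of 66 with 34 common circRNAs, and RNA binding and RNA decay genes 20 of 65 with 27. The ubiquitin list summed to 19701 ± 3326 RPM in the H group and 19841 ± 4881 RPM in the L group, and the RNA list to 16384 ± 4340 and 16532 ± 2597 RPM (SD, n = 12 each). In both, 0 were called, of 34 and 26 tested (0.314% over all tested). The median log2 fold changes were 0.04 and 0.19, with -0.24 and -0.01 under DESeq2. Of the ubiquitin list, UBAP2 was followed by UBE2Q2, a ubiquitin conjugating enzyme, with 1919 ± 1323 RPM in H and 2074 ± 1319 RPM in L. The next UBAP2 circles were that of 5 exons (1563 ± 854 and 1813 ± 1286 RPM) and that of 3 exons (921 ± 672 and 1052 ± 1213 RPM). Of the RNA list, PAN3 was followed by XPO4, a nuclear export receptor (2174 ± 1245 and 2071 ± 1289 RPM), and the list also held UPF2, a factor of nonsense-mediated decay (868 ± 653 and 829 ± 489 RPM).

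Cilium and centrosome genes, of interest because the sperm tail is a modified cilium, had 6 of 53 genes with 12 common circRNAs. They summed to 11121 ± 3521 RPM in the H group and 8982 ± 2446 RPM in the L group (SD, n = 12 each). Of the 12 tested, 0 were called (0.314% over all tested) and 4 had a log2 fold change above 0. The median was -0.26, with -0.31 under library totals and -0.46 under DESeq2. CSPP1 and CEP63 are given above. IFT88, a subunit of intraflagellar transport, had 1459 ± 911 RPM in H and 945 ± 730 RPM in L (log2 fold change -0.51, unadjusted P = 0.466), and CEP128 had 825 ± 747 and 600 ± 706 RPM (log2 fold change -0.42, unadjusted P = 0.644). The adjusted P was 0.9997 for each by edgeR, and the groups overlapped. This list is not complete either. Outside it, and picked after their values were seen, CEP57 had 1668 ± 1028 and 2150 ± 1304 RPM in H and L. The common circRNAs of SPICE1 (539 ± 610 and 422 ± 402 RPM in sum) and BBS2 (472 ± 423 and 353 ± 304 RPM in sum) were higher in H (SD, n = 12 each).

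Markers of possible source cells were counted in the same way, and the lists were not tested against each other. Of 45 genes of epididymal and accessory gland epithelium, 4 hosted 7 common circRNAs, with 3919 ± 1294 RPM in the H group and 4299 ± 1976 RPM in the L group (SD, n = 12 each). The most abundant were ADAM7, an epididymal membrane protein (1174 ± 745 and 1486 ± 915 RPM in H and L), EPCAM, an epithelial adhesion molecule (905 ± 1201 and 740 ± 560 RPM), and a pair of circles of ABCB5 (633 ± 520 and 614 ± 398 RPM, and 365 ± 398 and 516 ± 564 RPM). With all their circRNAs, common or not, the genes of this list summed to 2715, 5344 and 9162 RPM (lowest, median, highest) in H libraries and 2411, 6552 and 10445 RPM in L libraries. For 27 of the 45 no circRNA was listed, among them KRT8, KRT18 and GPX5, but 36 of the 45 symbols were found in the annotation, so the others could not be matched.

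None of the 50 genes of the germ cell list hosted a common circRNA. The list is not complete: C2CD6, NUP210L and TSGA10, which are known from testis or sperm and were picked after their values were seen, hosted common circRNAs. C2CD6 had a pair with 1675 ± 1795 RPM in the H group and 1199 ± 1237 RPM in the L group in sum, NUP210L had 1 with 1342 ± 1883 and 1240 ± 1295 RPM, and TSGA10 had 1 with 617 ± 860 and 201 ± 256 RPM (SD, n = 12 each). Of the 50 listed genes, 16 had any circRNA, with sums of 0, 1687 and 4129 RPM (lowest, median, highest) in H libraries and 0, 1391 and 3809 RPM in L libraries. ZPBP, a protein of the acrosome, led with 576 RPM, and its most frequent circle was found in 10 libraries. For PRM1, PRM2, TNP1, AKAP4 and 30 other genes of the list none was listed, and 48 of the 50 symbols were found in the annotation. Of 25 leukocyte genes, 2 had a circRNA, each in a single library, and PTPRC, CD3E, CD14 and S100A8 were among the 23 without. The absence of a gene's circRNA does not describe its linear RNA, which was not analysed here.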

How the data were processed

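The table deposited by the authors gives a raw count of junction reads for each of 17379 circRNAs in 24 long RNA libraries. Per the methods of the study, a circRNA had to be called by find_circ as well as by CIRI2 and to have 2 or more reads over its junction. The submitters' processing notes name cutadapt, FastQC, Bowtie and the build susScr11. The small RNA libraries were not used here. RPM is the count over the column total. The members and gene lists were chosen with earlier results of these data known. Named circRNAs were taken by rank of abundance, variation, span, shared sites, P value and gene list (some of these are not reported here), and the PSD3 ratio was added after its values were seen. A permutation test had been run on that ratio and was set aside for this reason. L and H were compared with edgeR 4.0.16 in R 4.3.3 (TMM, filterByExpr, quasi-likelihood test with legacy=TRUE, no covariate), with Benjamini-Hochberg adjustment over all circRNAs that passed the filter. Alternatives used DESeq2 1.42.0, other scalings and filters, the replicate number as a block, and each library left out in turn. The test was also checked on simulated counts. Single values were compared by two-sided permutation tests (100000 resamples) in Python 3.11.15 with SciPy 1.17.1. Genes and sequence are from NCBI Annotation Release 106 of Sscrofa11.1, and flanks were compared with BLAST 2.17.0.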

Additional observations from a re-analysis of the deposited data

How the results depend on the processing

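The count of 3 common circRNAs called between L and H changed with the test. It was 11 with DESeq2, 44 with legacy=FALSE and 5 when reads in at least 6 libraries were required. That filter let in circRNAs that were not common, and 47 of 2793 were called. After adjustment 20 circRNAs passed, and none of these was common. The count of common ones was 50 with limma on log2(RPM + 10), an alternative chosen after seeing the data, of which 43 were higher in the L group. With library totals, TMMwsp, no filter, or without L8, L11 and L12, it was 3. Leaving out each library in turn gave 3 to 7 calls, with 7 without H10 and 5 without H5, H6, H9, L4, L5, L9 or L10. After adjustment 0 common circRNAs remained in each of these fits but that without a filter, which left 2, while it called 10517 of 17379 circRNAs. For the 10 circRNAs of smallest P, 0 of 90 values under 9 alternatives changed sign. The unadjusted P rose above 0.05 for 3 of these values and fell below 0.05 for 21. The 21 included PTGES3 when reads in at least 6 libraries were required (log2 fold change 0.41) and with the replicate block (0.33). Both fold changes were too small for the fold limits, so PTGES3 was not called in these fits. Without L8, L11 and L12, a choice made after seeing the data, RAB21 was not called (P = 0.0506, log2 fold change 3.67). LOC110256791 was not called without a filter (P = 0.0600, log2 fold change 1.44). In the main fit these fold changes were 3.58 and 1.31.

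The replicate block gave 22 calls and 0 after adjustment, and LOC110256791 was not called in it (P = 0.0711, log2 fold change 1.24). It also moved the log2 fold changes of DCUN1D1 (3.78 to 9.24), RAB21 (3.58 to 8.29), the circle outside genes on chromosome 6 (3.06 to 5.39), SRPRB (3.01 to 7.37), ERO1B (2.80 to 6.76), GCH1 (2.80 to 7.90) and KANSL1L (-1.88 to -0.81). The numbers do not pair boars: same-numbered libraries had correlations of -0.0439 to 0.192, and 2 of 12 pairs correlated best with their own number. With the same pairing, the paired permutation test of the share of reads on circRNAs under 1000 bases had the same difference of 1.10 points at p = 0.0190, and the block changed no call for the number of common circRNAs detected, the shares of reads on all common circRNAs and on the 40 found in every library, or the longer span classes.

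This share differed by 1.58 points (p = 0.0161) without L8, L11 and L12, a choice made after seeing the data, and by 0.895 to 1.37 points when single libraries were left out. The permutation p fell below 0.05 without H3 (1.26, p = 0.0387), H9 (1.26, p = 0.0373), H10 (1.37, p = 0.0166), L6 (1.21, p = 0.0495), L8 (1.25, p = 0.0411) or L12 (1.27, p = 0.0351). The difference in common circRNAs detected ranged from 74.0 to 115 with single libraries left out, with 115 and p = 0.0490 without L4. The 26 common circRNAs with P under 0.05 by presence numbered 26 with at least 5 reads and with libraries thinned to 128644 reads, which could remove few detections, since 0.380% of the values above 0 were below 10 reads. The number was 16 without L8, L11 and L12, which were picked for their high numbers of common circRNAs, so a lower number is tied to that choice. With single libraries left out it was 28 to 50. The count was 44 without H3, 41 without H5, 40 without H6, 50 without H7, 40 without H8, 44 without H9, 46 without H10, 44 without H11 and 42 without L4. Over all testable circRNAs the share rose too, from 4.05% to between 4.23% and 4.995% without these H libraries. It was 7.50% without L4, against 5.30% among the common ones. The testable set changed as well, because the groups were then unequal. It held 3280 circRNAs in the main comparison, 4102 (without H11) to 4183 (without H8) without these H libraries, and 4173 without L4. The cause of these changes was not tested. The share of reads on all common circRNAs, on the 40 found in every library and on the longer classes stayed on the same side of the threshold under each alternative run. With single libraries left out, the first differed by 0.711 (without H6) to 1.83 points, and the second by -0.00802 (without H11) to 0.419 points (without H1), so its sign was not stable. The class of 1000 to under 10000 bases differed by 0.612 (without H11) to 1.36 points, and that of 10000 bases and over by -1.23 to -0.533 points (without L3).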
